A study of Drosophila melanogaster with 17 samples.

Results

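Brains of one wild-type strain of Drosophila melanogaster, Canton S, were measured in 2 sets: WT_old with 5 arrays and WT_new with 3, which together make up 8 of the 17 Affymetrix arrays in the series. The 8 arrays were taken by their group labels, and the rule uses no measured value. Both sets carry the same label of strain, adult stage, whole brain and both sexes, with 4 brains pooled on each array, and the names old and new are not explained further: the age of the flies, the number of males and females on an array and the dates are not given. The other 9 arrays are 3 each of C17 (Moody null), PMdr65 (Mdr65 null) and UAS_control, whose label gives a UAS-Mdr65-RNAi transgene, aimed at one of the genes studied, and names no driver; the series uses it as a control close in background to these mutants. Flies of all 5 groups were kept on cornmeal molasses food at 16 °C or room temperature, and brains were dissected in saline straight into lysis buffer. RNA was then amplified with a whole-transcriptome kit before labelling with biotin. According to the series, WT_new was handled on another day than the mutants, and WT_old was added to find transcripts that follow the batch. The day of WT_old is not stated, so the set of brains and the day of processing cannot be told apart here. Whether the arrays of a set came from separate fly cultures is not stated, so p-values here measure array-to-array spread, and precision is limited by the 5 and 3 arrays.

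The fly brain is made of neurons and several kinds of glia, and its outer layer, the surface glia, seals it from the circulating haemolymph. Fat body, haemocytes, tracheae, muscle and the retina lie against the brain in the head capsule and have to be removed by hand, so their transcripts can enter a dissected sample. Transcripts of mitochondrial proteins, heat shock proteins, clock genes and activity-regulated genes are known to move with temperature, feeding, time of day and handling. In whole brains, fewer cells of a type and less RNA per cell cannot be told apart.

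Values are RMA-normalised log2 signals of the deposited table. Over all genes tested, nearly every second transcript differed between the sets: 4025 of 8938 genes (45.0%) passed limma at an adjusted p under 0.05, with 2152 higher in WT_old (24.1%) and 1873 lower (21.0%). Most differences were small, since only 225 genes (2.52%) were both called and at least 2-fold apart, 30 of them higher in WT_old (0.336%) and 195 lower (2.18%). In 3602 genes (40.3%) all 5 WT_old arrays lay on one side of all 3 WT_new arrays. The median difference over all genes was 0.01 on the log2 scale. Array 3 of WT_new stood apart: its correlation with the other WT_new arrays was 0.980 to 0.981, against 0.994 between those 2 and 0.991 to 0.996 within WT_old. Calls of named genes that were lost without that array are marked, and many other results are given with and without it. Without it, 18.4% of genes were higher in WT_old and 19.7% lower. Control probe sets at both ends of a transcript show how evenly it was copied, and 3 such transcripts were read. The control probe sets at the 3′ end of Act5C, a cytoplasmic actin, exceeded those at the 5′ end by 0.82 ± 0.08 (SD, n = 5) in WT_old and by 1.38 ± 0.29 (n = 3) in WT_new, a difference of -0.565 on the log2 scale (exact two-sided permutation test, p = 0.0357, the smallest that 5 against 3 arrays allow, and 0.0625 after adjustment over 7 array measures). For GAPDH the same excess was 1.63 ± 0.11 (n = 5) and 1.94 ± 0.08 (n = 3), with the same exact p and adjusted p. For eIF-4a it was 1.71 ± 0.185 (n = 5) and 1.88 ± 0.065 (n = 3), and these arrays overlapped (exact permutation test, p = 0.25, adjusted 0.25). Without WT_new array 3 the Act5C difference was -0.732. The 18S rRNA control was separate too, at 13.82 to 13.96 in WT_old and 13.44 to 13.70 in WT_new (exact permutation test, p = 0.0357, adjusted 0.0625). So was the SD of signals on an array, at 2.222 to 2.231 against 2.173 to 2.218, with the same p and adjusted p. The array median and the bacterial controls overlapped (exact permutation tests, p = 0.214 and 0.179, both adjusted 0.25). The part of the end bias and of these measures in the results below was not tested.

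Both sets had the markers of a brain. The RNA-binding protein gene elav, a marker of neurons, lay at 11.89 to 11.99 in WT_old and 11.50 to 11.66 in WT_new, a log2 difference of 0.34 (limma, adjusted p = 0.000121). The active zone gene brp lay at 12.55 to 12.67 and 12.35 to 12.52, higher in WT_old by 0.20 (limma, adjusted p = 0.00821). The glial homeobox gene repo lay at 9.93 to 10.45 and 10.03 to 10.38 (limma, adjusted p = 0.9). brp and repo were chosen as checks of the tissue, outside the rule for named genes. The genes whose null alleles the series studies were close between the sets. The receptor gene moody, which acts in surface glia, had signals of 9.96, 9.79, 10.04, 10.20 and 10.04 in WT_old and 9.65, 9.95 and 9.72 in WT_new, which overlap. Its difference of 0.23 passed the threshold by a small margin (limma, adjusted p = 0.0444) and did not pass without WT_new array 1 (adjusted p = 0.192) or array 3 (0.132), nor without WT_old array 1, 3, 4 or 5 (0.0521 to 0.0934). For the efflux transporter gene Mdr65 the signals were 9.35, 9.72, 9.83, 10.30 and 9.80 in WT_old and 10.45, 10.31 and 9.94 in WT_new. They overlapped too, with a difference of -0.43 (limma, adjusted p = 0.041) that did not pass without WT_new array 1 (0.174) or 2 (0.112), or without WT_old array 1, 2, 3 or 5 (0.0579 to 0.0829).

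**Figure D1:**
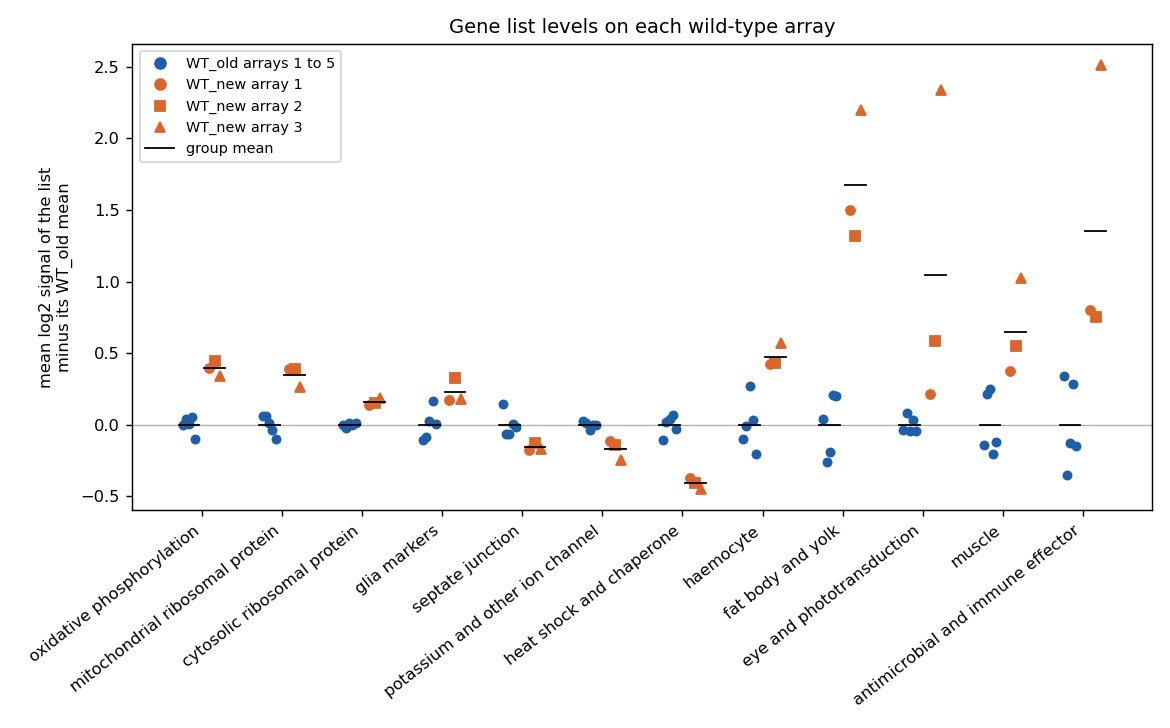
Mean log2 signal of each gene list on the 8 wild-type arrays, minus the list's mean over the WT_old arrays, with blue circles for WT_old and an orange circle, square and triangle for WT_new arrays 1, 2 and 3; black bars are group means. Mitochondrial lists lie higher on all 3 WT_new arrays, while the eye and antimicrobial lists are highest by far on WT_new array 3.

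Most genes of the oxidative phosphorylation and mitochondrial ribosomal protein lists were lower in WT_old. Of 64 measured oxidative phosphorylation genes, which code for subunits of the respiratory chain and ATP synthase, 54 were lower in WT_old and 5 higher, with a median log2 difference of -0.43. Their mean signal lay at 10.39 to 10.55 on the WT_old arrays and at 10.83 to 10.94 on the WT_new arrays, so the sets did not overlap. The other groups had mean signals of 10.56 to 10.61 (C17), 10.56 to 10.66 (PMdr65) and 10.86 to 10.93 (UAS_control) for these genes. Without WT_new array 3 the counts were 54 and 4. Of 71 mitochondrial ribosomal protein genes, whose products translate the mitochondrial genome, 56 were lower and 1 higher, with a median of -0.40, and the mean signal was 8.87 to 9.03 in WT_old against 9.23 to 9.36 in WT_new. Over all genes the matching shares were 21.0% lower and 24.1% higher.

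Single subunits showed the same on every array. UQCR-6.4, a small subunit of complex III, had signals of 11.20, 11.17, 11.20, 11.28 and 11.03 in WT_old and 11.96, 12.04 and 12.06 in WT_new. The sets were far apart relative to their spread, and WT_new was 1.80-fold higher (log2 difference -0.85, SE 0.06, limma adjusted p = 1.16e-06). COX8, a subunit of cytochrome c oxidase, read 10.58, 10.64, 10.64, 10.71 and 10.44 in WT_old against 11.50, 11.45 and 11.37 in WT_new, 1.79-fold higher in WT_new (limma, adjusted p = 1.81e-06). The complex I subunits ND-42 and ND-B14 fell by 0.80 and 0.74 (limma, adjusted p = 3.55e-06 and 1.41e-06). Among the mitochondrial ribosomal genes, mRpS14 stood at 8.90, 8.90, 8.92, 8.65 and 8.72 in WT_old and 9.65, 9.69 and 9.54 in WT_new, again without overlap (log2 difference -0.81, limma adjusted p = 2.79e-06). mRpL47 and mRpL49 fell by 0.79 and 0.69. The exceptions were few: ATPsynCF6L, a paralog of a coupling factor subunit of ATP synthase, was higher in WT_old by 0.56 (limma, adjusted p = 0.000296). mRpS30 was higher by 0.22, a call (limma, adjusted p = 0.0342) lost without WT_new array 2 or 3 (0.115 and 0.0972) or WT_old array 1 or 2 (0.0718 and 0.0722). Another paralog, COX7AL2, had the lowest difference of the list, -1.74, with 5.82 to 6.72 in WT_old and 7.18 to 8.36 in WT_new.

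Some other mitochondrial and metabolic genes were lower too. Phb1, which codes for a prohibitin of the inner mitochondrial membrane, read 9.49 to 9.59 in WT_old and 10.18 to 10.37 in WT_new (log2 difference -0.72, limma adjusted p = 1.16e-06). Sod2, the superoxide dismutase of the mitochondrial matrix, fell by 0.70, and Sod3, an extracellular form, fell by 0.68. Of 29 genes of glycolysis, sugar transport and trehalose, 11 were lower and 3 higher. The lower ones included Pgk, phosphoglycerate kinase, at 10.15 to 10.44 in WT_old and 10.80 to 11.14 in WT_new, a difference of -0.73 (limma, adjusted p = 1.3e-05). Pglym78, Gapdh1 and Tpi, all glycolytic enzymes, fell by 0.51, 0.49 and 0.46. Glut1, a sugar transporter gene, was instead higher in WT_old by 0.39, with 12.42 to 12.53 against 12.06 to 12.13.

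The machinery of cytosolic translation and protein turnover shifted less. Of 36 cytosolic ribosomal protein genes, 21 were lower in WT_old and 1 higher, with a median of -0.15; without WT_new array 3 the lower ones numbered 14. RpL10Ab, of the large subunit, read 11.77 to 11.93 in WT_old and 12.44 to 12.45 in WT_new, and RpL36A fell by 0.43. RpS10a was the higher one, at 7.33 to 7.70 against 6.52 to 7.16. Among 38 proteasome and chaperonin genes, 17 were lower and 8 higher (5 without WT_new array 3). Rpn8, a lid subunit of the proteasome, fell by 0.58 (limma, adjusted p = 3.23e-06), while CCT8, a subunit of the cytosolic chaperonin, was higher by 0.63 (limma, adjusted p = 3.22e-05).

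**Figure D2:**
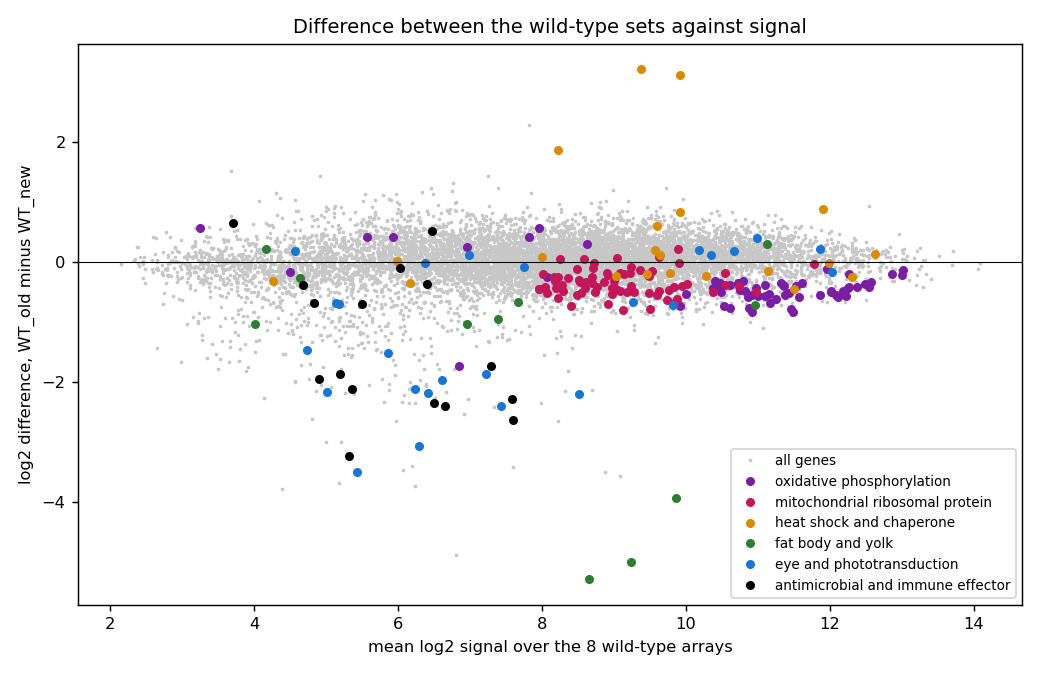
Log2 difference WT_old minus WT_new of each of 8938 genes (grey) against its mean log2 signal over the 8 wild-type arrays, with 6 gene lists in colour. Mitochondrial genes form a band just below 0 at high signal, yolk, eye and antimicrobial genes reach below -2, and 3 heat shock genes lie at the top.

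Gene length went with direction. Genes were split into 5 classes of equal size by their length in the RefSeq annotation, introns included. In the shortest class, from 147 to 1307 bp, 15.7% of genes were higher in WT_old and 31.5% lower, with a median of -0.09. In the longest class, from 8732 to 396036 bp, 40% were higher and 8.38% lower, with a median of 0.14, and the 3 classes between formed a steady series. Most genes of these mitochondrial lists are short. Within the shortest class, however, 32 of 38 oxidative phosphorylation genes (84.2%) and 47 of 57 mitochondrial ribosomal protein genes (82.5%) were lower. That was above the 31.5% of all genes of that class. Long neuronal genes lay at the other end. Of 33 ion channel genes, 15 were higher in WT_old (45.5%) and 2 lower (6.06%), against 24.1% and 21.0% of all genes. The lower ones numbered 1 without WT_new array 1 or 2 or WT_old array 2, 3 or 5, and the median was 0.15. All 15 were in the longest class, where 25 of the 33 lie. There 60% of the ion channel genes were higher, against 40% of all genes of that class. Without WT_new array 3 the higher ones numbered 10, all in the longest class, where 581 of all 1778 genes were then higher. The voltage-gated calcium channel gene cac, needed for transmitter release, had signals of 12.24, 12.17, 12.15, 12.25 and 12.23 in WT_old and 11.74, 11.69 and 11.63 in WT_new. The sets were separate, by 0.52 (limma, adjusted p = 1.13e-05). Cngl, a cyclic nucleotide-gated channel gene, was higher by 0.77 at its brightest probe set and by 0.06 to 0.25 at the others. Irk2, an inward rectifier, was lower by 0.37. Of 72 synaptic adhesion genes, 25 were higher and 7 lower (17 and 10 without WT_new array 3), and in the longest class 24 of 60 (40%) were higher, the share of all genes of that class. Lar, a receptor tyrosine phosphatase of growth cones and synapses, and Dscam4, an immunoglobulin cell adhesion gene, were higher by 0.57 and 0.54 (limma, adjusted p = 1.94e-05 and 8.94e-05). The excess of 3′ over 5′ control signal was larger in WT_new for Act5C and GAPDH and overlapped for eIF-4a, as given above, and its part in the relation with length was not tested.

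**Figure D3:**
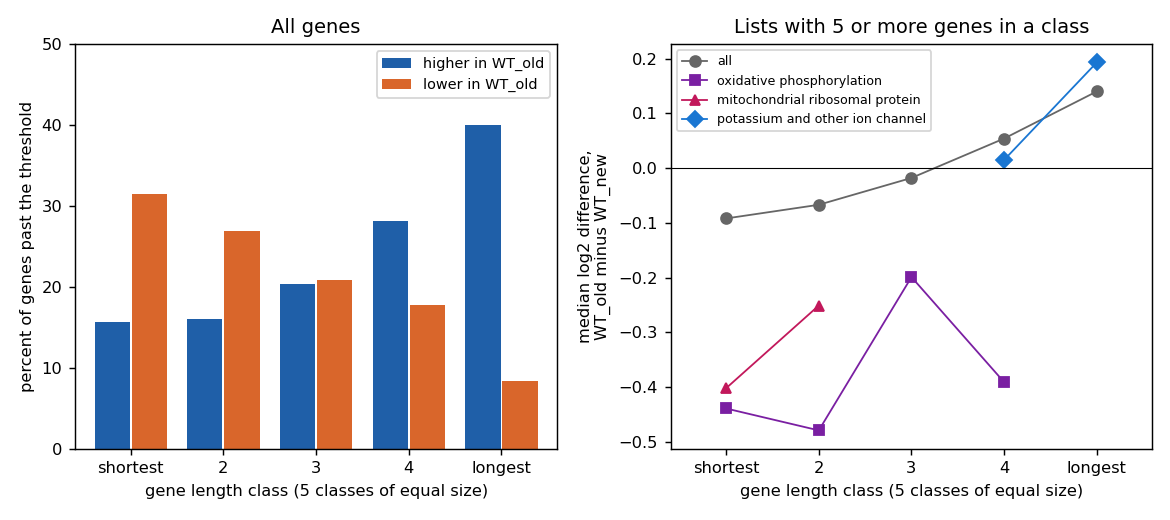
Left, percent of genes in each of 5 gene length classes that passed the threshold higher (blue) or lower (orange) in WT_old; right, median log2 difference in each class for all genes and for lists with at least 5 genes in it. The share higher grows from 15.7% to 40% with length, and mitochondrial lists lie below the line of all genes in every class shown.

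Heat shock genes gave the largest rises in WT_old. Of 21 heat shock and chaperone genes, 7 were higher and 6 lower (3 lower without WT_new array 2), with a median of 0.01 that turned to -0.01 without WT_new array 3, so no direction is given for the list as a whole. The 3 higher ones past 2-fold are classic stress-induced genes. Hsp26, a small heat shock protein, had signals of 10.27, 11.00, 10.81, 10.93 and 9.88 in WT_old and 7.58, 7.08 and 7.46 in WT_new. All WT_old arrays were above all WT_new arrays, 9.22-fold on average (log2 difference 3.21, SE 0.28, limma adjusted p = 2.79e-06). Hsp68, an inducible member of the Hsp70 family, read 9.98, 11.34, 11.54, 11.51 and 11.06 in WT_old and 8.11, 7.95 and 7.89 in WT_new, 8.61-fold higher (limma, adjusted p = 3.55e-06). Hsp27, a second small heat shock protein, was at 8.42, 9.14, 9.25, 9.30 and 8.53 against 6.99, 7.06 and 7.12, 3.65-fold higher (limma, adjusted p = 1.74e-05). Smaller rises were seen in the co-chaperone genes DnaJ-1 (0.88) and stv (0.83) and in Hsp110 (0.60). Hsc70-3, the Hsp70 of the endoplasmic reticulum, was lower by 0.45. For comparison, the group means of Hsp26 were 9.03 in C17, 8.10 in PMdr65 and 8.54 in UAS_control, all between the means of the wild-type sets, 10.58 and 7.37. Those of Hsp68 were 9.81, 9.04 and 8.88, again between 11.09 and 7.98.

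The greatest falls were in yolk protein genes, which are expressed by the female fat body and ovary. Yp3 had signals of 7.19, 5.75, 6.34, 6.92 and 7.17 in WT_old and 11.83, 11.09 and 12.98 in WT_new, Yp2 7.61, 6.81, 6.70, 7.35 and 8.37 against 12.29, 11.75 and 13.07, and Yp1 8.59, 7.47, 7.87, 8.55 and 9.43 against 12.30, 11.80 and 12.85. None of the 3 genes overlapped between the sets, and WT_new was 39.2-, 32- and 15.3-fold higher (limma, adjusted p = 1.57e-05, 5.46e-06 and 7.17e-06). Without WT_new array 3 the log2 differences of Yp3, Yp2 and Yp1 were -4.79, -4.65 and -3.67, and each was still called. The gene fit, which is female-biased in the fat body of the head, followed with 4.03 to 6.20 in WT_old and 6.97 to 9.73 in WT_new (limma, adjusted p = 0.00122). Its difference was -3.41, or -2.71 without WT_new array 3. In the other groups the mean of Yp2 was 10.74 in C17, 11.28 in PMdr65 and 12.56 in UAS_control, so the WT_old mean of 7.37 was the lowest of the 5. Of 11 fat body and yolk genes, 6 were lower in WT_old and 1 higher (2 without WT_new array 2 and 0 without WT_new array 3), with a median of -0.96 (-0.51 without WT_new array 3), and their mean signal was 6.81 to 7.28 in WT_old and 8.39 to 9.27 in WT_new. The lipophorin gene apolpp, for the lipid carrier of the haemolymph, had a difference of -0.72 (limma, adjusted p = 0.00352), or -0.51 without WT_new array 3 (0.0271). Lsp2, a larval storage protein gene still read in adult fat body, was dim: it lay at 3.39 to 3.85 in WT_old and 3.49 to 5.71 in WT_new and did not pass (adjusted p = 0.0566), but passed without WT_new array 2 (0.00467). The higher one was Tsf1, a transferrin, with a difference of 0.29 that did not pass without WT_new array 3 (adjusted p = 0.137). The sex-determination gene Sxl, whose signal here sums over transcripts of both sexes, was higher in WT_old by 0.63, with 11.23 to 11.43 against 10.62 to 10.78 (limma, adjusted p = 2.88e-06). The share of females on each array is not given, and its part in these differences was not tested.

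A pair of peptide precursor genes also had large falls. Nplp3 had signals of 4.6, 5.45, 4.28, 6.08 and 4.48 in WT_old and 8.50, 8.67 and 12.43 in WT_new, with array 3 of WT_new far above the others. The difference was -4.89 (limma, adjusted p = 0.000184), and -3.61 without that array. For Nplp2 the signals were 7.73, 7.21, 7.22, 8.46 and 8.12 against 10.92, 10.58 and 12.44, a difference of -3.56, or -3.0 without array 3. Of the 30 neuropeptide and insulin-like peptide genes, 8 were higher (26.7%) and 4 lower (13.3%), against 24.1% and 21.0% of all genes. Without Nplp2 and Nplp3 these counts were 8 and 2 of 28. Ms (myosuppressin), amn (amnesiac) and Nplp1 were higher in WT_old by 0.46, 0.57 and 0.44, each with separate sets. Ilp5, an insulin-like peptide of brain neurosecretory cells, was lower by 0.71, at 10.27 to 10.80 against 10.98 to 11.53.

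**Figure D4:**
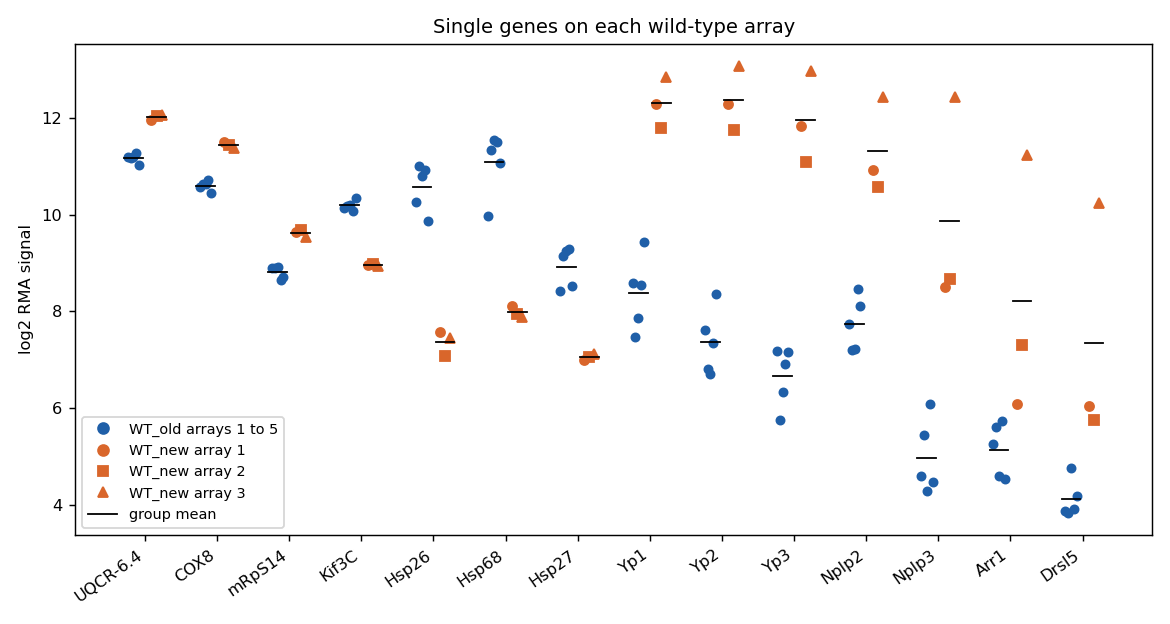
Log2 RMA signal of 14 genes on the 5 WT_old arrays (blue) and on WT_new arrays 1, 2 and 3 (orange circle, square and triangle), with black bars at group means. Mitochondrial genes and Kif3C differ by a tight step, heat shock genes are higher in WT_old, and yolk, Nplp, Arr1 and Drsl5 signals are higher in WT_new with array 3 at the top.

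Many transcripts of the retina and of immune effectors were higher in WT_new, most of all on array 3. The mean signal of 25 eye and phototransduction genes was 7.20 to 7.33 in WT_old and 7.46, 7.83 and 9.58 on WT_new arrays 1, 2 and 3. It was 8.67 to 9.38 in UAS_control and 7.15 to 7.39 over C17 and PMdr65. Of these genes, 15 were lower in WT_old and 3 higher, and 9 and 4 without WT_new array 3. Arr1, an arrestin that shuts off rhodopsin, read 5.25, 5.61, 4.59, 5.73 and 4.53 in WT_old and 6.08, 7.31 and 11.23 in WT_new. WT_old lay below all 3, but the difference of -3.06 (limma, adjusted p = 0.00735) became -1.55 without array 3 (0.0272). retinin, for a protein of the corneal lens, moved from -3.51 to -1.68 and Arr2 from -2.21 to -0.98 by the same step. Other members of the list did not rest on array 3. ninaB, the carotenoid oxygenase that makes retinal, was at 9.43 to 9.70 in WT_old and 10.41, 10.24 and 10.14 in WT_new (limma, adjusted p = 3.55e-05), and santa-maria, a scavenger receptor for carotenoid uptake in neurons and glia, was lower by 0.67. rdgB, a phosphatidylinositol transfer protein of photoreceptors that is also made elsewhere in the brain, was higher by 0.39.

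Of 16 antimicrobial and immune effector genes, 10 were lower in WT_old and 0 higher, with a median of -1.80, and 6 were lower with a median of -0.96 without WT_new array 3. By limma the higher ones also numbered 0 at an unadjusted p under 0.05 and without that array. The list's mean signal was 5.02 to 5.71 in WT_old, 6.17 and 6.12 on WT_new arrays 1 and 2 and 7.88 on array 3. Drsl5, a drosomycin-like peptide, had signals of 3.88, 3.84, 4.76, 3.91 and 4.18 in WT_old against 6.05, 5.75 and 10.24, a difference of -3.23 (limma, adjusted p = 0.00616), or -1.78 without array 3. BomS2, a short secreted bomanin of the Toll response, lay at 5.72 to 7.84 in WT_old and 8.25 to 10.91 in WT_new, and BomS4 at 4.25 to 4.90 and 5.84 to 7.32. Their differences of -2.64 and -1.87 became -1.81 and -1.39 without WT_new array 3. DptB, an Imd pathway peptide, did not differ by this test (0.65, limma adjusted p = 0.232), with 3.17 to 5.37 in WT_old and 3.15 to 3.47 in WT_new. nec, a serpin that restrains Toll signalling, had even values within WT_new: it read 7.46, 7.83, 7.99, 7.92 and 7.38 in WT_old and 8.87, 8.94 and 9.17 in WT_new. It was 2.42-fold higher in WT_new (limma, adjusted p = 5.2e-06).

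Haemocyte genes, for the blood cells of the fly, followed with 10 of 21 lower in WT_old and 2 higher (1 without WT_new array 2), and the mean signal was 6.71 to 7.19 against 7.34 to 7.49. The median of these genes was -0.58, or -0.30 without WT_new array 3. NimC3, a phagocytic receptor of the Nimrod family, was at 4.91 to 5.56 in WT_old and 6.95, 7.40 and 8.50 in WT_new. The difference was -2.35 (limma, adjusted p = 0.000283), or -1.91 without WT_new array 3. Muscle genes were called lower at a share near the 21.0% of all genes, with 6 of 27 lower and 2 higher. Without WT_new array 3 the lower ones numbered 3, and likewise without WT_old array 1, 4 or 5. The list as a whole still lay lower in WT_old, with a median of -0.58 (-0.35 without WT_new array 3) against 0.01 over all genes. Its mean signal was 6.23 to 6.68 in WT_old and 6.81 to 7.46 in WT_new. Act79B, an actin of tubular muscle, read 7.71 to 8.20 in WT_old and 9.15 to 9.31 in WT_new (log2 difference -1.21, limma adjusted p = 0.00158). Mlc2, a myosin light chain, was dim at 2.88 to 4.00 and 4.87 to 6.41, and its difference of -2.27 (limma, adjusted p = 0.0111) did not pass without WT_new array 3 (0.0625). SERCA, the calcium pump of the reticulum, was higher by 0.49 at its brightest probe set, and the others gave 0.14 and -0.33. Of 41 tracheal and cuticle genes 10 were called lower, also near the 21.0% of all genes, and 2 higher, and 4 were lower without WT_new array 3. Their median was -0.30 (-0.15 without that array), and their mean signal was 4.46 to 4.57 in WT_old and 4.69 to 5.52 in WT_new. The cuticular protein gene Cpr49Ae fell by 2.08, a call (limma, adjusted p = 0.00826) lost without WT_new array 3 (0.0502). Cpr62Bb had a difference of -1.43, or -1.08 without that array. The median signal of the list's members was 4.29 in WT_old, close to the floor of the arrays, where folds are approximate.

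**Figure D5:**
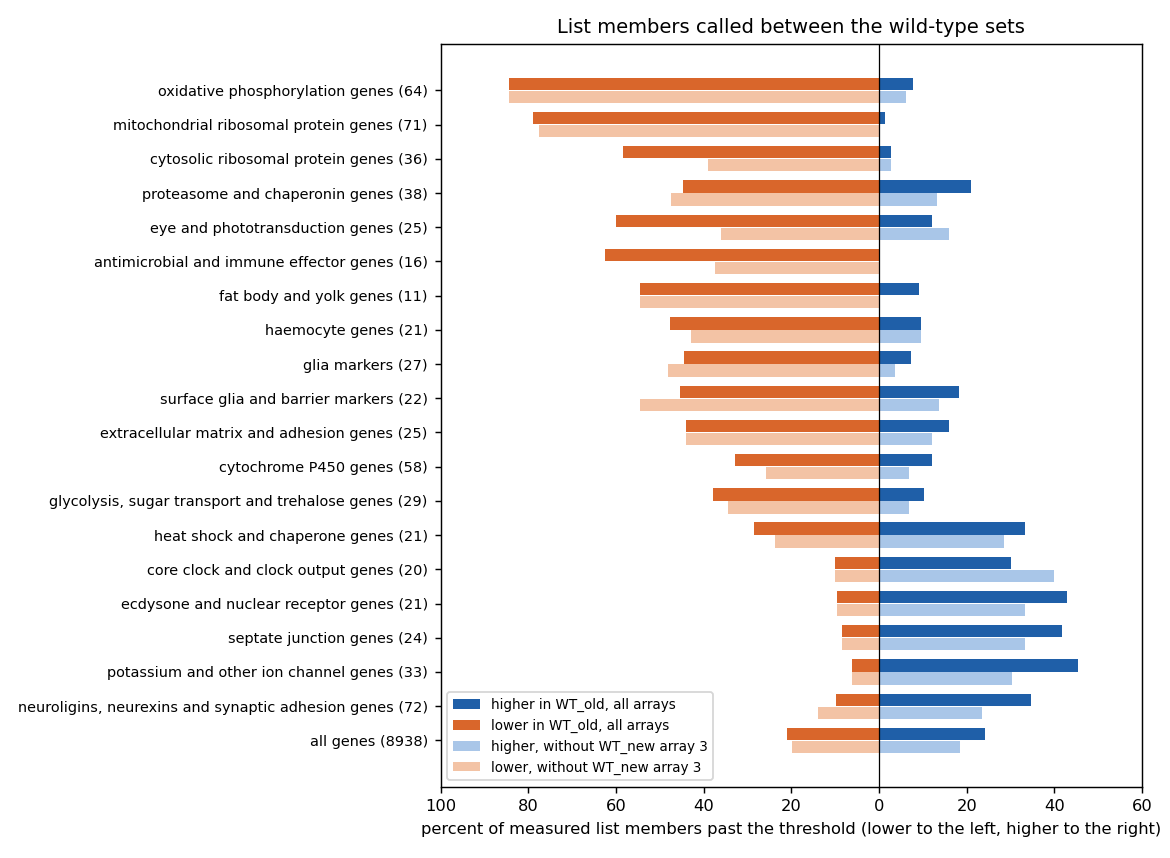
Percent of the measured members of each gene list (number in brackets) that were called lower (left) or higher (right) in WT_old, in dark colour with all arrays and in pale colour without WT_new array 3. The lower counts of the mitochondrial lists are 54 and 56 with that array and 54 and 55 without it, while the lower counts of the eye and antimicrobial lists shrink from 15 to 9 and from 10 to 6.

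Glia and barrier gene lists differed in direction. Among glia markers 44.4% were lower in WT_old, and among surface glia and barrier markers 45.5%, against 21.0% of all genes. Of 27 glia markers, 12 were lower in WT_old and 2 higher (1 higher without WT_new array 1 or 3 or without WT_old array 1, 3, 4 or 5), with a median of -0.25, and of 22 surface glia and barrier markers, 10 were lower and 4 higher. The 4 higher ones became 1 without WT_new array 1 and 2 without WT_old array 1 or 5. Some of the lower surface glia and barrier markers, Col4a1 and SPARC among them, are in the haemocyte list too. The glia and surface glia lists also share members, such as moody, Mdr65 and Gli, so their shares are not independent. The gene e (ebony), whose product joins beta-alanine to amines in glia, had signals of 9.85, 9.83, 9.73, 10 and 9.76 in WT_old and 10.61, 10.78 and 10.59 in WT_new. The sets were apart by -0.82 (limma, adjusted p = 9.87e-06). alrm, a marker of astrocyte-like glia, fell by 0.57 and rumpel, a glial transporter gene, by 0.69. drpr, the engulfment receptor of ensheathing glia, was higher by 0.34. Septate junction genes, which code for the seal between surface glia and between epithelial cells, went the other way. Of 24 measured, 10 were higher in WT_old (41.7%) and 2 lower, with a median of 0.21 (8 and 2 without WT_new array 3). Over all genes 24.1% were higher, and in the longest length class 40%. The part of gene length in this list was not tested. cold (coiled), a Ly6 protein needed for septate junctions, read 9.02, 8.69, 8.95, 8.90 and 9.13 in WT_old and 8.46, 8.28 and 8.30 in WT_new, a difference of 0.59 (limma, adjusted p = 4.5e-05). The claudin gene sinu and the scaffold gene cora were higher by 0.46 and 0.39. bou (boudin), another Ly6 protein of the junction, was lower by 0.85, at 6.37 to 6.61 against 7.26 to 7.36. Gliotactin, Gli, of tricellular junctions, was dim and did not pass (0.60, limma adjusted p = 0.162), with 4.51 to 6.04 and 4.00 to 5.16.

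Matrix genes were more often lower than higher in WT_old. Of 25 extracellular matrix and adhesion genes, 11 were lower and 4 higher (2 higher without WT_new array 1). Col4a1, a collagen IV chain, had signals of 10.55, 10.61, 10.58, 11.24 and 10.27 in WT_old and 11.80, 11.86 and 11.62 in WT_new, a difference of -1.11 (limma, adjusted p = 5.74e-05). SPARC, which binds collagen IV, read 10.47, 10.69, 10.64, 10.67 and 10.13 against 11.56, 11.61 and 11.39, lower by 1.0 on the log2 scale, with no overlap (limma, adjusted p = 7.1e-06). LanA, a laminin chain, fell by 1.32 from a dim level of 5.74 to 6.34 in WT_new to 3.91 to 5.55. trol (perlecan) fell by 0.66 at its brightest probe set, while its other probe sets ranged from -0.59 to 0.39. Col4a1 and SPARC are made by fat body, haemocytes and glia alike. The fat body and haemocyte lists were lower in WT_old as well, as given above, and their part in the matrix genes was not tested.

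Clock and activity genes differed in a few members. Of 20 core clock and clock output genes, 6 were higher in WT_old (30%) and 2 lower (10%). Over all genes 24.1% were higher and 21.0% lower, and 45.0% were called in either direction against 40% of the clock list. cwo (clockwork orange), a repressor of the clock loop, read 9.35, 9.27, 9.36, 9.46 and 9.76 in WT_old and 8.71, 8.85 and 8.70 in WT_new, higher by 0.69 (limma, adjusted p = 5.36e-05). The transcription factor gene Pdp1 and the potassium channel gene Irk1 were higher by 0.38 and 0.61, and cry, the blue-light photoreceptor of clock cells, was lower by 0.56 (8.04 to 8.38 against 8.71 to 8.90). Of 12 activity-regulated genes, 5 were higher (41.7%) and 0 lower. By limma the lower ones also numbered 0 at an unadjusted p under 0.05 and 1 without WT_old array 5. Arc1, a capsid-forming gene of synapses, had signals of 12.75, 12.76, 12.94, 12.76 and 13.22 in WT_old and 11.92, 11.89 and 12.09 in WT_new, 1.89-fold higher (limma, adjusted p = 8.33e-06). kay, the fly Fos, was higher by 0.70 at its brightest probe set and by 0.22 at another. cbt (cabut), an immediate early gene, was uneven within WT_old: 9.98 and 10.26 on arrays 1 and 2 but 11.38 to 11.59 on arrays 3 to 5, against 10.05 to 10.23 in WT_new. Its difference of 0.83 did not pass (limma, adjusted p = 0.0629), though it did without WT_old array 1 (0.011) or 2 (0.0291). Hr38, an activity-induced nuclear receptor, lay at 8.78 to 8.91 on WT_old arrays 1 to 4 and at 10.76 on array 5, with 9.52 to 9.66 in WT_new. The difference of -0.35 was not called (limma, adjusted p = 0.423), and without WT_old array 5 it was -0.73 (0.000586).

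Among hormone genes, 9 of 21 ecdysone and nuclear receptor genes were higher in WT_old (42.9%) and 2 lower (9.52%), against 24.1% and 21.0% of all genes. The higher ones numbered 7 without WT_new array 3. The lower ones numbered 4 with quantile normalization or centred array medians, and 1 with the wild types alone in the fit. EcR, the ecdysone receptor, read 9.56 to 9.65 in WT_old and 8.97 to 9.09 in WT_new, a difference of 0.57 (limma, adjusted p = 1.01e-05). ImpE1, an ecdysone-inducible gene, was higher by 0.84 at its brightest probe set and by 0.00 to 0.44 at the others, while Hr78, a nuclear receptor, was lower by 0.42. InR, the insulin receptor, had signals of 8.16, 8.06, 8.09, 8.05 and 8.27 in WT_old and 7.25, 7.37 and 7.42 in WT_new, higher by 0.78 (limma, adjusted p = 2.74e-05). REPTOR, a factor activated when TOR signalling is low, was higher by 0.65, with 8.67 to 9.40 against 8.25 to 8.72. For REPTOR the ranges overlapped.

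Detoxification genes were more often lower than higher in WT_old. Of 58 cytochrome P450 genes, 19 were lower (32.8%) and 7 higher (12.1%), against 21.0% and 24.1% of all genes. Without WT_new array 3 these counts were 15 and 4. Cyp305a1 fell by 0.89 (limma, adjusted p = 2.98e-05) and Cyp6a20, a P450 gene tied to male aggression, by 0.94, whereas Cyp4p2 was higher by 0.76. Cyp6g1, the insecticide resistance gene, had 4.75 to 6.06 in WT_old and 6.38, 6.96 and 9.15 in WT_new, and its difference of -2.11 (limma, adjusted p = 0.0139) did not pass without array 3 (0.105). Of 25 glutathione S-transferase genes, 6 were lower (24%), near the 21.0% of all genes, and 1 higher (4%). The lower ones numbered 3 without WT_new array 2. The higher ones numbered 0 without WT_new array 3 or WT_old array 3, and 2 without WT_old array 1. GstD3 was 2.23-fold higher in WT_new. Among 38 ABC transporter genes, 9 were higher (23.7%) and 7 lower (18.4%), near the shares of all genes. Mdr49, a close relative of Mdr65, read 7.01, 7.85, 8.21, 7.69 and 7.43 in WT_old and 9.25, 9.42 and 8.82 in WT_new, 2.87-fold higher in WT_new (limma, adjusted p = 0.000138). CG10226, another member of the same family, was lower by 0.81, with 8.14 to 8.95 against 9.19 to 9.71. Prx6c, a peroxiredoxin gene, was near the floor in WT_old (2.77 to 2.90) and at 4.09 to 5.41 in WT_new.

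Outside the lists, some genes had tight values within each set. Kif3C, a kinesin gene, had the smallest adjusted p of all genes (limma, 3.7e-08): its signals were 10.14, 10.19, 10.21, 10.07 and 10.35 in WT_old and 8.95, 8.99 and 8.94 in WT_new, 2.36-fold apart. Its means in C17, PMdr65 and UAS_control were 11.42, 11.11 and 10, so the WT_new mean of 8.96 was the lowest of the 5 groups. twe (twine), a Cdc25-type phosphatase of meiosis, read 5.29 to 5.6 in WT_old and 3.78 to 4.21 in WT_new (limma, adjusted p = 1.16e-06). foi, a zinc transporter gene, was higher by 1.20 and babo, a type I activin receptor, by 0.76 (limma, adjusted p = 1.3e-06 and 1.53e-06). The means of babo were 9.86 in C17, 9.94 in PMdr65 and 9.43 in UAS_control, beside 9.97 in WT_old and 9.21 in WT_new. Idgf4, a chitinase-like growth factor gene, was 2.04-fold higher in WT_new, at 9.49 to 9.59 against 10.52 to 10.73.

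Genes with large rises in WT_old included some transcription factors. hry (hairy), a repressor of the bHLH class, read 9.21, 7.47, 8.49, 9.01 and 9.18 in WT_old and 5.87, 6.68 and 6.61 in WT_new. The WT_old values were widely spread but all above WT_new, 4.88-fold on average (limma, adjusted p = 0.000518). jumu (jumeau), a forkhead factor, was at 7.60 to 8.04 against 5.93 to 6.63. It was higher by 1.43 (limma, adjusted p = 5.97e-06). zld (zelda), a pioneer factor of the early embryo, and tth (toothrin), a PHD finger gene, were higher by 1.16 and 1.15. dia (diaphanous), a formin that nucleates actin filaments, was higher by 1.23 with 7.64 to 8.05 in WT_old and 6.07, 7.39 and 6.39 in WT_new. FASN3, a fatty acid synthase gene, was higher by 1.51 from a dim level of 2.46 to 3.07.

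Genes near the floor in one set and clearly read in the other were few. With limits of a mean under 4 in one set and over 6 in the other, 4 genes were near the floor in WT_old and read in WT_new, and 0 the reverse; without WT_new array 3 these counts, added after seeing the data, were 2 and 0, and the first ran from 4 to 6 without any other single array. CG14645 had signals of 3.71, 3.94, 3.74, 3.57 and 4.03 in WT_old and 10.49, 6.99 and 4.96 in WT_new. The WT_new arrays were widely spread, with array 1 highest, and the difference of -3.68 (limma, adjusted p = 0.00128) became -2.18 without array 1. CG7214 lay at 2.74 to 3.18 in WT_old and 5.90, 5.54 and 8.83 in WT_new, and its difference of -3.78 was -2.75 without array 3. Its means were 3.13 in C17, 3.06 in PMdr65 and 9.58 in UAS_control. CG7203 had a similar order, from 3.66 to 4.12 in WT_old to 5.68, 5.18 and 8.45 in WT_new, with -1.61 in place of -2.62 when array 3 was left out. CG6870 read 3.45 to 4.12 and 6.11, 6.16 and 8.35, a difference of -3.0, or -2.26 without array 3. CG4000, just above these limits, had a difference of -3.74, or -2.40 without array 3.

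Probe sets with no gene symbol were more often higher in WT_old than those with 1 symbol. Of 2737 such probe sets, 33.8% were higher in WT_old and 10% lower, with a median of 0.12, against 26.9% and 18.9% of the 10243 probe sets with 1 symbol, with a median of 0.04. Over all 13290 probe sets 45.4% passed, 28.3% higher and 17.1% lower. Their signals were also lower, with a median of 6.89 against 8.16. Where a called gene had several probe sets, all gave the same direction as the brightest in 340 of 448 genes, and in 30 at least 1 other probe set was called in the opposite direction.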

How the data were processed

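RNA of whole adult brains was measured on Affymetrix arrays. The authors deposited RMA-normalised log2 signals per probe set, per the file headers, and the submitters' processing notes name affy, RMA and limma (versions not given in the sources used here). Deposited were 13290 probe sets in the main table and 18769, controls aside, in an unfiltered one; shared values matched to within 0.0050. No further normalization was applied. Probe sets carried 1 symbol (10243), several (310) or none (2737) in the platform annotation. A gene was its brightest probe set, which gave 8938 genes. A mean for each of 5 groups was fitted over all 17 arrays (limma 3.58.1, R 4.3.3, 12 residual and 2.93 prior degrees of freedom). The contrast WT_old minus WT_new was adjusted by the Benjamini-Hochberg method over 13290 probe sets at a threshold of 0.05. A set of 7 array measures was compared by exact permutation.

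In simulated data for this contrast with 13290 probe sets, log2 changes of 1 and -1 were called in 47 and 44 of 50 probe sets and changes of 0.5 and -0.5 in 34 and 32. Of 13090 unchanged ones, 6 were called. The simulated noise was independent, each probe set had the same spread in all groups, and few probe sets were changed. In the data the spread differed between sets for some genes, as for retinin (SD 0.23 in WT_old and 3.25 in WT_new). These counts are therefore not the error rate of the real comparison.

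The sets of arrays, the 40 gene lists and the rule for named genes were chosen with earlier results of these data known. After values were seen, 19 list entries that had matched the wrong gene were removed and 1 was added. Named genes were the 16 higher and 16 lower with the largest changes among called genes whose arrays did not overlap, and the 6 higher and 6 lower with the smallest adjusted p. For each list, up to 8 members by adjusted p and those with the highest and lowest change were added, and for lists of other cells the 4 brightest. moody, Mdr65 and up to 10 genes with a mean under 4 in one set and over 6 in the other completed the rule. The rule took 348 genes, of which the text names 123, picked after their values were seen. Gene lengths come from RefSeq. Alternatives were a quantile normalization, centred array medians, the unfiltered table, the dimmest 40% left out, weights per array, a prior that was trended and robust, the wild types alone in the fit, a replicate block, a 2-fold limit, medians over probe sets and each array left out.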

Additional observations from a re-analysis of the deposited data

Results flagged for a closer look

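Single WT_old arrays lay far from the other 4 in 9 of the 172 measures examined (125 genes, the levels of 40 lists and 7 array measures), when Dixon's ratio was set against its critical value of 0.71. Chance flags about 1 group in 20. The nuclear receptor gene Hr38 stood at 10.76 on array 5, and the endoplasmic chaperone gene Hsc70-3 at 11.17 on array 2. elav was highest on array 1 at 11.99. GstD3 and CG10226 were lowest on that same array, at 8.04 and 8.14. Gapdh1 was highest on array 4 at 11.01, and Cpr49Ae on array 3 at 5.28. Idgf4 was lowest on array 2 at 9.49, within a narrow range of 9.49 to 9.59. The level of the list of immune recognition and signalling genes was 7.59 on array 1 and 7.13 to 7.21 on the others.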

How the results depend on the processing

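The count of 6035 probe sets (3764 higher and 2271 lower in WT_old), 4025 genes and 556 list members past the threshold stayed within 1.5 times under every alternative but the 2-fold limit. That limit left 292 probe sets (73 higher and 219 lower), 225 genes and 61 list members. Leaving out 1 array at a time gave 5022 to 5811 probe sets, 3407 to 3845 genes and 473 to 531 list members. The share of called probe sets that were higher was 62.4%, between 54.6% (medians centred) and 65.4% (replicate block) over the other alternatives, but 25% under the 2-fold limit, where most calls were lower. Same-numbered arrays of the sets did not deviate together (correlations of 0.026, 0.054 and 0.032), so the numbers were not taken as pairs; with the replicate block 4891 probe sets and 3186 genes passed. Of 125 named genes, 119 passed, and 113 to 118 with 1 array left out. None reversed while called. Calls lost in other settings were those of moody, Mdr65, mRpS30, Tsf1, Mlc2, Cpr49Ae and Cyp6g1, and those of Lsp2, cbt and Hr38 were gained. With the dimmest 40% of probe sets left out, 10 lower tracheal and cuticle genes became 0 and 15 lower eye genes 6, since dim members were no longer tested. The Act5C end difference ranged from -0.732 to -0.482 and that of GAPDH from -0.353 to -0.261 with 1 array left out. Signals near the floor have no detection call in these tables, which limits folds of dim genes.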

Other observations

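Genes of smell and taste were mostly dim and differed in few members. Of 87 odorant binding and chemoreceptor genes, 15 were higher in WT_old (17.2%) and 9 lower (10.3%), against 24.1% and 21.0% of all genes. In 29 of them the WT_old mean was under 4 on the log2 scale. Or22a, an odorant receptor gene of antennal neurons, had signals of 5.72, 5.28, 5.82, 5.32 and 5.59 in WT_old and 4.81, 4.59 and 4.51 in WT_new, higher by 0.91 (limma, adjusted p = 0.000146). Obp19d, an odorant binding protein gene, lay at 5.71 to 6.51 in WT_old and 7.73, 7.40 and 10.39 in WT_new, with a difference of -2.53 (limma, adjusted p = 0.00514) that was -1.59 without WT_new array 3 (0.036). Of 29 neuronal and transmitter genes, 9 were higher (31.0%) and 5 lower (17.2%). The lower ones numbered 2 without WT_new array 1 or without WT_old array 2 or 5, and 3 without WT_new array 2 or WT_old array 3. SerT, the serotonin transporter gene, was among the lower ones, at 8.50 to 8.94 against 9.06 to 9.20 (limma, adjusted p = 0.00113). Of 13 cell division and chromatin genes, 5 were higher and 0 lower by limma, also 0 at an unadjusted p under 0.05. fzy (fizzy), an activator of the anaphase-promoting complex, was higher by 0.73 at its brightest probe set and by 0.50 at another.

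The remaining lists are given by their counts, beside 24.1% higher and 21.0% lower over all genes. Of 33 immune recognition and signalling genes 5 were higher in WT_old and 5 lower (3 lower without WT_new array 2). Of 23 ribosome biogenesis genes 2 were higher and 8 lower, and of 28 oxidative stress genes 2 and 8 (1 higher without WT_new array 2). Transporters of organic ions and amino acids had 3 higher and 10 lower of 26 (1 higher without WT_new array 3), UDP-glycosyltransferases 3 and 6 of 20, and lipid genes 3 and 7 of 29 (1 higher without WT_new array 1). Among 34 reproductive genes 14 were higher and 6 lower, and the higher ones numbered 7 without WT_new array 3 and 9 without WT_old array 3 or 5. Nutrient-responsive genes had 4 higher and 2 lower of 17 (1 lower without WT_old array 2, 3 or 5), pigment genes 2 and 4 of 17 (7 lower without WT_new array 1), and endocrine gland genes 4 and 1 of 11 (2 higher without WT_new array 3, 0 lower without WT_new array 2). Of 9 gut genes 2 were higher and 0 lower by limma, also 0 lower at an unadjusted p under 0.05; 1 was higher without WT_new array 3 or WT_old array 3 or 4, and 1 lower without WT_new array 2 or WT_old array 1. Of the 4 measured genes of moody G protein signalling 2 were higher and 0 lower by limma (1 higher without WT_new array 1 or 3 or WT_old array 1, 3, 4 or 5).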
